A study of Gallus gallus with 14 samples.

Results

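Connexins are the membrane proteins of gap junctions, and the genes described here are GJD2, GJA1, GJA10, GJC1, GJA5, GJB2 and GJB6, measured in chick retina by RNA sequencing. They were chosen by gene symbol from a list of 8 connexins, 7 of which were among the 18561 genes analysed here; GJA4, the eighth, is not analysed here. There were 7 libraries from lens retinas and 7 from control retinas. The lens birds were wild type White Leghorn chickens that wore a -10 D lens for 3 days, an optical defocus under which chick eyes are known to grow too long. The control birds were of the same strain and genotype. The age label of every sample reads postnatal day 3, the age at which lenses were fitted. Each sample is bulk retina, and no label states whether each one is a different animal, so p-values measure the spread between these samples, which may in part be technical.

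A connexin channel is built from connexins of a pair of neighbouring cells, whose half-channels dock across the gap and let ions and small molecules pass directly. In neurons such junctions form electrical synapses, and in the retina they couple cells of one class, such as horizontal cells, as well as cells of different classes. Dopamine, nitric oxide and protein kinases are known to open or close these junctions with light and time of day. GJD2 encodes the main neuronal connexin, and variants near it have been linked to refractive error in people.

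Values are CPM, read counts scaled to a fixed total, on which 1 read is worth the same step for every gene of a library. From those steps the depth came to 30.8 to 41.4 M reads in a library and was alike in both groups, of which 30.1% to 33.01% fell in listed genes. Where a gene had 0 reads, its level may still have been as high as 3 counts, or 0.0724 to 0.0973 CPM depending on the library, a limit that covers counting error only. Of the retinal markers, the photoreceptor list summed to 1139 to 1479 CPM in controls and 832 to 1452 CPM in lens retinas, and the Müller glia list to 1374 to 1569 and 1331 to 1443 CPM. Endothelial and pericyte markers summed to 43.1 to 62.1 CPM in controls and 44.4 to 60.6 CPM in lens retinas, most of it KDR and PECAM1, while CLDN5 and TIE1 had means under 0.02 CPM in both groups. Pigment epithelium markers summed to 22.8 to 29.5 CPM in controls and 18.98 to 24.5 CPM in lens retinas, and microglia markers to 5.545 to 8.44 and 4.41 to 6.58 CPM. RNA from the W chromosome, the female sex chromosome of birds, was found in 4 control libraries but in 1 lens library, so the groups differ in it.

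The 7 genes lie on 4 chromosomes, none of them a sex chromosome. Their positions are copied from the deposited table, for which the submitters' processing notes name the GRCg6a genome, and chromosomes were looked up in a gene table of the GRCg7b assembly. GJD2 spans 32502628 to 32504276 on the plus strand of chromosome 5. GJA1 spans 61830888 to 61838385 and GJA10 75416785 to 75418428, both on the minus strand of chromosome 3. GJC1 spans 3660155 to 3672001 on the minus strand of chromosome 27; in the GRCg7b gene table the gene with that synonym carries the symbol GJC3 and the older name GJA7. GJB6 spans 180268486 to 180278102 and GJB2 180294098 to 180307556, neighbours on the plus strand of chromosome 1. GJA5 spans 93831629 to 93852700 on the minus strand of the same chromosome. GJB2 shares 985 bases with GJA3 on the same strand, and GJA5 overlaps LOC107055079 on the opposite strand. How reads in shared stretches were assigned is not given in the sources used here, so the levels of GJB2 and GJA5 are uncertain. The other 5 genes overlap no listed gene.

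The question for each gene was whether its level in retinas behind a lens differed from that in control retinas. None of the connexins changed past the test. GJD2 stood at nearly the same level in both groups, GJC1 had a lower mean in lens retinas without passing the adjustment over all genes, and the rest had 30 reads or fewer in each library. Of the 5 connexins tested with limma, 0 passed an adjusted p of 0.05, against 11 of 14218 genes in the whole table (0.0774%), most of them lower in lens retinas (0.0703%). With limma-voom on recovered reads the number of connexins was also 0. At an unadjusted p under 0.05 there was 1 connexin, GJC1, against 13.5% of all genes tested (10.5% lower and 3.03% higher in lens retinas). Lower genes made up 77.6% of those with an unadjusted p under 0.05, and 51.7% after median ratio scaling. The median log2 difference of the 5 was -0.015, the value of GJA10, beside -0.04 over all genes tested, of which 63.2% were lower in lens retinas. The median of the 5 turned to 0.033 after median ratio scaling, 0.0099 after rescaling to the same sum and 0.0062 after quantile normalization. Over all genes tested it was then -0.0019, -0.019 and 0.0033. In none of the 5 did the groups separate without overlap, against 0.267% of all genes.

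**Figure D1:**
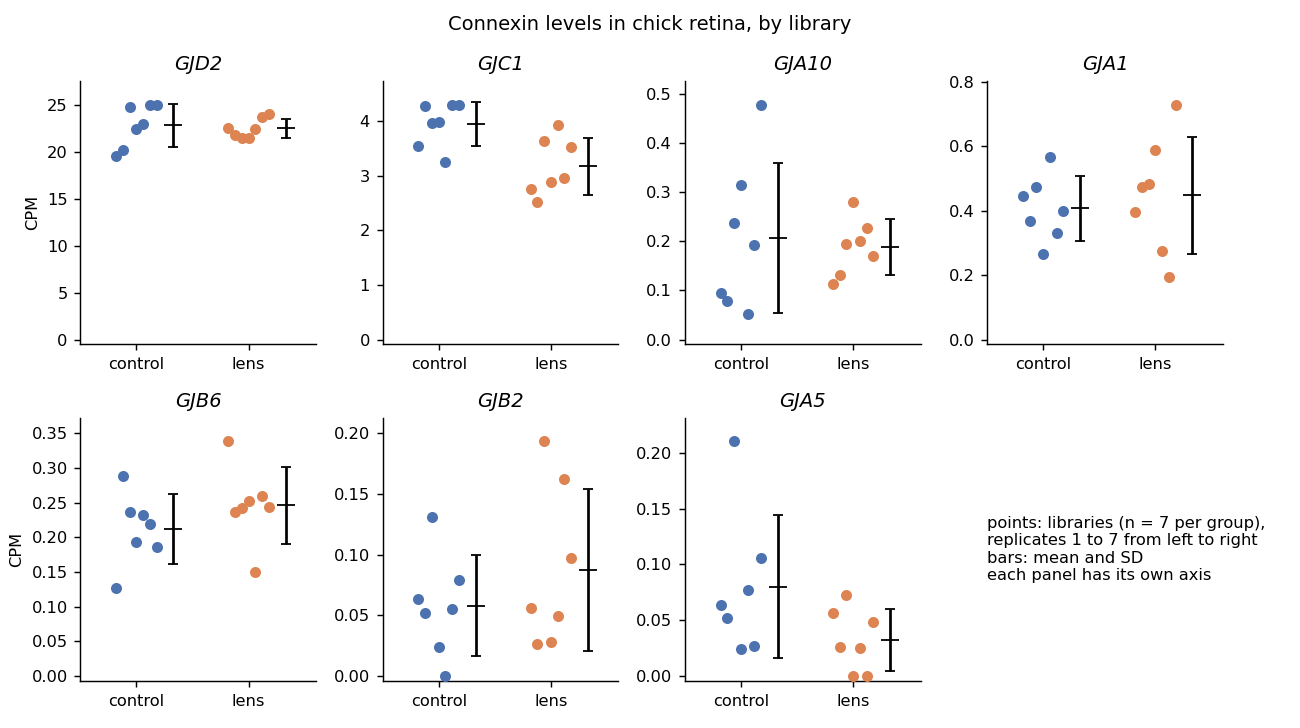
CPM of each connexin (vertical axes, 1 scale per panel, from 0) in the 7 control and 7 lens libraries; points are libraries and bars the mean and SD. The lens points of GJC1 lie between 2.52 and 3.92 CPM and the control points between 3.25 and 4.30 CPM, while the lens points of GJD2 lie within the wider range of its controls.

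GJD2, the connexin of neuronal electrical synapses, was read 613 to 991 times in each library, the best measured of the 7. In control retinas its lowest, median and highest levels were 19.5, 22.9 and 25.05 CPM, and in lens retinas 21.5, 22.4 and 24.1 CPM. The lens range thus lay inside the control range. Control replicates 1 and 2 were the lowest of all libraries, at 19.5 and 20.2 CPM, and control replicates 6 and 7 the highest. The means were 22.8 ± 2.28 CPM in controls and 22.5 ± 1.04 CPM in lens retinas (SD, n = 7 each), a difference of -1.55% of the control mean. The log2 difference was -0.017 (SE 0.06, limma adjusted p = 0.931), with a 95% interval of -0.15 to 0.11. An exact permutation test over 3432 assignments of the libraries, two-sided, gave p = 0.783. The sign turned under several settings: it was 0.033 after median ratio scaling, 0.0099 after rescaling to the same sum, 0.0036 after quantile normalization, and 0.016 when the 5 libraries with W-linked RNA were left out. Between libraries of a group GJD2 varied by 7.83% of its mean, where counting error alone gives 3.43%. Of the 500 tested genes nearest to it in mean level, 29.2% varied less within groups.

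GJC1 encodes a connexin found in several classes of retinal neuron in mice, among them bipolar and ganglion cells. It was read 91 to 165 times per library. Its lowest, median and highest levels were 3.25, 3.98 and 4.30 CPM in controls and 2.52, 2.95 and 3.92 CPM in lens retinas. All 7 lens libraries lay below the control median, and the groups overlapped through control replicates 1 and 5, at 3.53 and 3.25 CPM, and lens replicates 3, 5 and 7, at 3.63, 3.92 and 3.52 CPM. The means were 3.94 ± 0.408 and 3.17 ± 0.519 CPM (SD, n = 7 each), a difference of -19.6% of the control mean. The log2 difference was -0.25 (SE 0.09, 95% interval -0.45 to -0.054), with an unadjusted p of 0.0151 and an adjusted p of 0.257 by limma. That log2(CPM + 1) scale somewhat compresses changes at this level too, and limma-voom gave -0.32 with an SE of 0.12. The exact permutation test, two-sided, gave p = 0.014. By unadjusted p GJC1 ranked 833 of 14218 genes, so many genes had smaller p-values. In bulk retina, fewer cells of a type and less RNA per cell cannot be told apart.

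The sign of GJC1 was the same in every alternative and with any single library left out, though its size was not. Leaving out each library in turn gave log2 differences of -0.29 to -0.21 and adjusted p-values of 0.132 to 0.444. Quantile normalization gave -0.18, with an unadjusted limma p of 0.0572 and an adjusted p of 0.399. Median ratio scaling gave -0.21, with an unadjusted limma p of 0.0277 and an adjusted p of 0.313. A covariate for W-linked RNA gave -0.23, with an unadjusted limma p of 0.0463 and an adjusted p of 0.435. The 9 libraries that lacked this RNA gave -0.16, with an unadjusted limma p of 0.266 and an adjusted p of 0.837. In those 9 the means were 3.69 ± 0.535 CPM in 3 control and 3.22 ± 0.551 CPM in 6 lens libraries (SD). The 4 control libraries with W-linked RNA stood at 3.97 to 4.30 CPM, and the 1 such lens library at 2.88 CPM. All 7 tested photoreceptor markers were also lower in lens retinas, by a median of 0.28 on the log2 scale, with 0 past the adjusted limma test and 5 at an unadjusted p under 0.05. Bipolar markers summed to 530 to 632 CPM in controls and 515 to 578 CPM in lens retinas, with 4 of 7 lower (3 after median ratio scaling) and 0 past the adjusted limma test (2 at an unadjusted p under 0.05). Amacrine markers were lower in 8 of 9 and ganglion cell markers in 7 of 8, with medians of -0.14 and -0.15 and 0 past the adjusted limma test (3 and 2 at an unadjusted p under 0.05). Over all genes tested 63.2% were lower and 13.5% had an unadjusted p under 0.05. The part of these cell types in the GJC1 value was not tested.

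**Figure D2:**
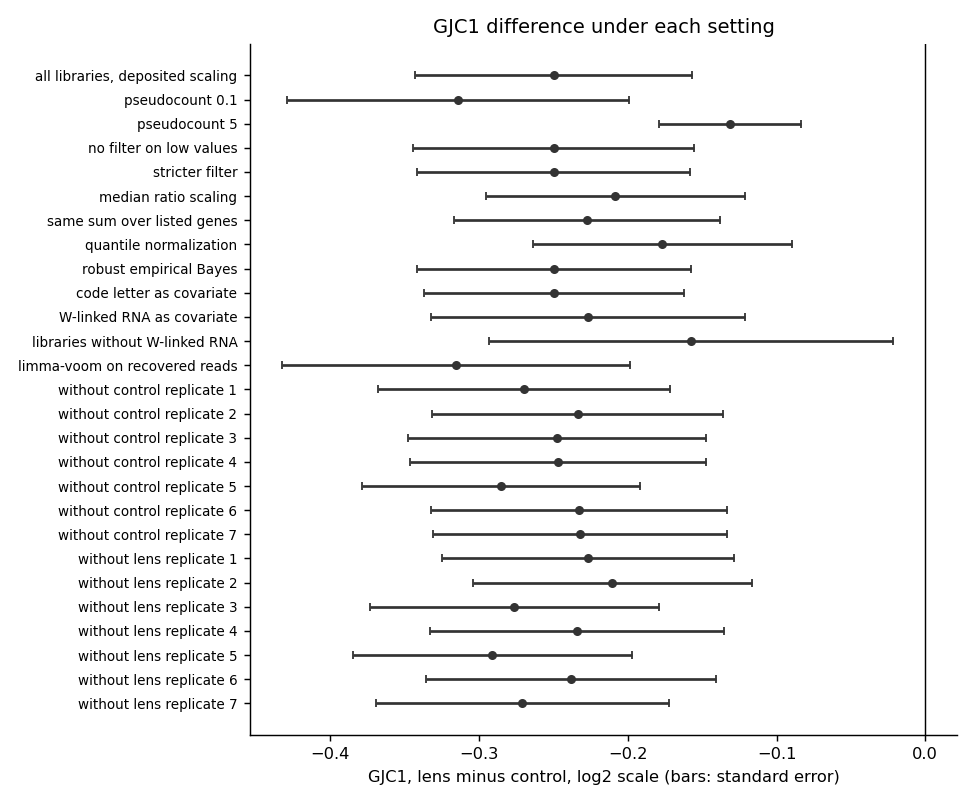
Difference of GJC1 between lens and control retinas (horizontal axis, log2 scale; with pseudocounts of 0.1 and 5 and in limma-voom the scale itself differs) under each setting and with each library left out; bars are standard errors. All points lie below 0, from -0.32 to -0.13, the nearest among rescalings at -0.18 after quantile normalization.

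GJA10, the ortholog of a connexin that joins horizontal cells in the mouse, was read 2 to 18 times per library. Its lowest, median and highest levels were 0.0516, 0.192 and 0.478 CPM in controls and 0.113, 0.193 and 0.280 CPM in lens retinas. The lens libraries therefore all lay within the wide control range, whose ends were control replicate 5 and control replicate 7. The means were 0.207 ± 0.152 and 0.188 ± 0.0568 CPM (SD, n = 7 each). The log2 difference was -0.015 (SE 0.07, limma adjusted p = 0.949), and the interval of -0.17 to 0.14 is on the log2(CPM + 1) scale, which compresses changes at such levels. Its sign turned with a pseudocount of 0.1, after quantile normalization and in 3 further alternatives. Horizontal cell markers summed to 197 to 260 CPM in controls and 224 to 241 CPM in lens retinas. Of the 8, 5 were lower in lens retinas, or 4 after quantile normalization, beside 63.2% of all genes with the deposited scaling. None of the 8 passed the adjusted limma test, with 1 at an unadjusted p under 0.05, beside 13.5% of all genes. That gene, CALB1, a calcium-binding protein, stood at 39.1 ± 7.39 CPM in controls and 31.9 ± 5.55 CPM in lens retinas (SD, n = 7 each; log2 difference -0.28, adjusted p = 0.33), with all 7 lens libraries below the control median.

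GJA1, the most widespread connexin of glia, pigment epithelium and vessels in mammals, was read 6 to 30 times per library. Its lowest, median and highest levels were 0.266, 0.398 and 0.567 CPM in controls and 0.195, 0.472 and 0.729 CPM in lens retinas. The lens libraries reached both lower and higher than the controls, with lens replicate 6 lowest and lens replicate 7 highest. The means were 0.406 ± 0.0994 and 0.448 ± 0.181 CPM (SD, n = 7 each), with a log2 difference of 0.035 (SE 0.08, 95% interval -0.13 to 0.20, limma adjusted p = 0.873). That log2(CPM + 1) scale compresses changes at such levels, and limma-voom gave 0.094 with an SE of 0.28. The sign turned without lens replicate 7 (-0.0089) and without the 5 libraries with W-linked RNA (-0.030). Müller glia markers differed widely in level in the same libraries. GLUL, the glutamine synthetase of Müller glia, stood at 542 ± 57.8 CPM in controls and 521 ± 34.4 CPM in lens retinas (SD, n = 7 each). SOX9, another of these markers, stood at 0.482 ± 0.356 and 0.329 ± 0.0932 CPM (SD, n = 7 each). All 9 tested were lower in lens retinas, or 7 after median ratio scaling, beside 63.2% of all genes with the deposited scaling. Of the 9, 0 passed the adjusted limma test and 1 had an unadjusted p under 0.05, beside 13.5% of all genes.

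GJB6 and GJB2 encode connexins that couple supporting cells of the inner ear and, in mammals, glia and epithelia. GJB6 was read 4 to 12 times per library, at 0.127, 0.220 and 0.288 CPM (lowest, median and highest) in controls and 0.150, 0.243 and 0.338 CPM in lens retinas. In GJB6, 6 of the 7 lens libraries lay above the control median, and the groups overlapped over most of their range. The means were 0.212 ± 0.05001 and 0.246 ± 0.0549 CPM (SD, n = 7 each), with a log2 difference of 0.040 (SE 0.05, 95% interval -0.067 to 0.15, limma adjusted p = 0.765). For GJB6 too the log2(CPM + 1) scale compresses changes, and limma-voom gave 0.19 with an SE of 0.25. Its spread within groups, 22.96% of the mean, was smaller than the counting error of 34.2% at its depth. GJB2 was below the filter on low values, which asked for 0.150 to 0.165 CPM in at least 7 libraries, and reached it in 2 libraries. It had 15 reads over the 7 controls and 23 over the 7 lens libraries, that is 0.0573 CPM (95% Poisson interval 0.0320 to 0.0944) and 0.0876 CPM (0.0555 to 0.131). These intervals cover counting error only, they overlap, and the exact permutation test, two-sided, gave p = 0.341.

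GJA5, a connexin of arterial endothelium and heart in mammals, had the fewest reads of the 7 over all 14 libraries, 30. In the controls alone GJB2 had fewer, 15 against 21. GJA5 had 3 reads or fewer in 12 of 14 libraries and was also below the filter. The reads numbered 21 over the control and 9 over the lens libraries, that is 0.0802 CPM (95% Poisson interval 0.0496 to 0.123) and 0.0343 CPM (0.0157 to 0.0650). Control replicate 3 alone held 8 of the 21 reads, and lens replicates 4 and 6 held 0. The exact permutation test, two-sided, gave p = 0.0693. KDR, the endothelial receptor of vascular growth factor, stood at 31.5 ± 4.197 CPM in controls and 31.7 ± 5.48 CPM in lens retinas (SD, n = 7 each). KDR was the highest of the endothelial and pericyte markers, and CDH5, another of them, stood at 0.135 ± 0.160 and 0.0530 ± 0.126 CPM (SD, n = 7 each). Of the 5 such markers tested 1 was lower, beside 63.2% of all genes, and 0 passed the adjusted limma test. The lower gene was ACTA2 (log2 difference -0.34, limma adjusted p = 0.18). It was also the 1 marker at an unadjusted p under 0.05, beside 13.5% of all genes. Among such markers below the filter, CDH5, PDGFRB and RGS5 had lower means in lens retinas and CLDN5 and TIE1 higher ones.

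**Figure D3:**
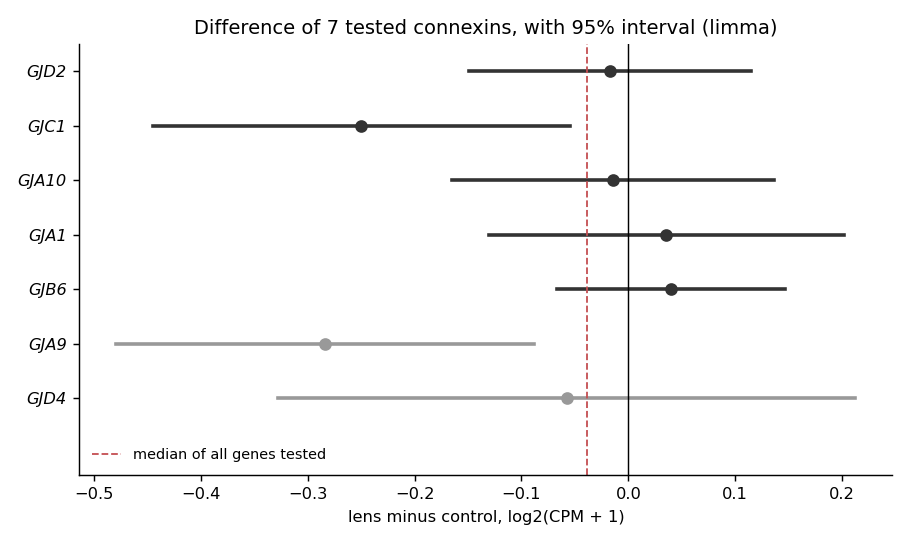
Lens minus control difference on the log2(CPM + 1) scale (horizontal axis) of 7 tested connexins, with 95% intervals from limma; dark points are the connexins of the list, grey points the others, and the dashed line is the median of all genes tested, -0.04. The intervals of GJC1 and GJA9 lie below 0, and those of the other 5 include it; neither gene passed after adjustment over all genes. The scale compresses changes at low levels, so the interval widths of GJA10, GJA1 and GJB6 cannot be compared with that of GJD2. Differences of GJC1, GJA9 and GJD4 are compressed to a lesser degree.

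Levels can be compared between genes only per length, and the only lengths at hand were the spans annotated in the deposited table, which include introns. Per kilobase of span, GJD2 stood at 13.7 ± 1.04 CPM and GJC1 at 0.300 ± 0.0507 CPM (SD, n = 14). GJA10 followed at 0.120 ± 0.0674, GJA1 at 0.0570 ± 0.0190 and GJB6 at 0.0238 ± 0.00556 CPM per kilobase of span (SD, n = 14). GJB2 and GJA5 came last, at 0.00541 ± 0.00413 and 0.00268 ± 0.00254 CPM per kilobase of span (SD, n = 14). GJD2 was above GJC1, GJC1 above GJA10 and GJB6 above GJB2 in all 14 libraries. GJA10 was above GJA1 in 11, GJA1 above GJB6 in 13 and GJB2 above GJA5 in 12 of the 14. The middle of this order rests on the length used, since without a length correction GJA1 and GJB6 come before GJA10. The first place of GJD2 does not: GJC1 would need a transcript of 259 bases to match it per base, and GJA1 one of 31.1 bases.

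The spread between libraries was set against counting error. Divided by its counting error, the variance within groups was 4.95 for GJD2, 2.41 for GJC1, 2.39 for GJA10 and 1.81 for GJA1. It was 1.54 for GJB2, 1.39 for GJA5 and 0.438 for GJB6. This ratio was thus above 1 for every gene but GJB6, and highest for GJD2. GJC1 and GJA10 came next, at 2.41 and 2.39. At the same relative spread such a ratio rises with the number of reads. As a percent of the mean GJD2 varied least of the 7, by 7.83%. Whether a ratio differs from 1 was not tested. Counting made up much of the spread for GJA1, GJB2, GJA5 and GJB6.

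**Figure D4:**
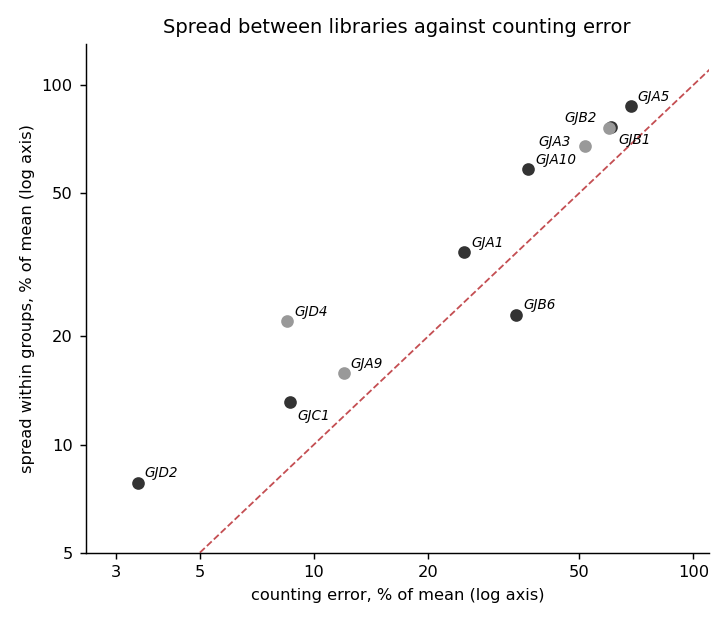
Spread within groups as a percent of the mean (vertical, log axis) against counting error as a percent of the mean (horizontal, log axis) for 11 listed connexins; dark points are the connexins of the list, grey points the others, and on the dashed line both are equal. GJD2 lies at 7.83% against 3.43%, and GJB6, at 22.96% against 34.2%, is the one point below the line.

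No pair of connexins had a correlation that passed the adjustment. Over 10 pairs of the 5 tested connexins, with values centred within each group (n = 14), Pearson's r ran from -0.26 for GJC1 and GJB6 to 0.51 for GJD2 and GJA10. That highest pair had a permutation p of 0.168, or 0.694 adjusted over the 10 pairs, a Spearman rho of 0.36 (permutation p = 0.285, adjusted p = 0.616), and an r of 0.28 without the 2 libraries farthest from the median of GJD2. No other pair had a smaller adjusted p by either measure. Leaving out 2 libraries in the same way moved the r of GJA1 and GJC1 from -0.19 to -0.59, the strongest value after that step. No p-value was computed for it. Centring was by group alone, not by the letter of the sample codes described below. GJD2 and GJC1 had an r of 0.24 and a rho of 0.20 (permutation p = 0.367 and 0.439, adjusted p = 0.694 and 0.732). For GJA10 and GJC1 r was 0.38 (permutation p = 0.129, adjusted p = 0.694).

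Patterns like those of the connexins across the 14 libraries, again centred within each group, were sought among tested genes whose symbol does not start with LOC. Those most like GJD2 included DYNLT1 and MEAF6, each with an r of 0.83. DYNLT1 is a dynein light chain and MEAF6 a subunit of histone acetyltransferases. Without the 2 libraries farthest from the median of GJD2 these values were 0.76 and 0.82. For GJC1 the nearest were PLK4, a kinase of centriole duplication, ARID1B, a subunit of chromatin remodelling complexes, and MBNL1, a splicing regulator, with r of 0.87, 0.85 and 0.82. Those of GJA10 were NUDT1, HYI and SSTR3 (0.90, 0.84 and 0.82), those of GJA1 HPSE2, COCH and P2RY13 (0.84, 0.76 and 0.75), and those of GJB6 URB1, DNAJC24 and MED10 (0.84, 0.83 and 0.82). Without the 2 libraries farthest from the median of the connexin concerned, r fell most for P2RY13, to 0.46, and SSTR3, to 0.60. It was 0.63 for DNAJC24 and 0.67 for HPSE2. These are descriptions over 14 points that share library depth. They were picked as the highest among those of the 14218 genes whose symbol does not start with LOC. The last 3 connexins rest on 30 reads or fewer per library.

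The sample codes end in L or R, letters that the labels do not explain, and GJA1 had the higher mean in L libraries in both groups. The 6 libraries ending in L stood at 0.446 to 0.729 CPM (mean 0.546 ± 0.106, SD) and the 8 ending in R at 0.195 to 0.484 CPM (mean 0.338 ± 0.0916, SD). In controls the means were 0.495 ± 0.0638 CPM in 3 L and 0.340 ± 0.0568 CPM in 4 R libraries, and in lens retinas 0.596 ± 0.129 and 0.337 ± 0.128 CPM (SD, 3 and 4 libraries). With the group in the model, R minus L was -0.21 on the log2 scale, with an unadjusted limma p of 0.00513 and an adjusted p of 0.639. No gene passed the adjusted limma test between the letters (0%), and 7.76% had an unadjusted p under 0.05. GJC1 had an R minus L difference of 0.15 (limma adjusted p = 0.656) and GJD2 one of 0.028 (limma adjusted p = 0.921). Both groups held 4 R and 3 L libraries, so a term for the letter cannot move the lens difference; with it the limma adjusted p of GJC1 was 0.213.

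**Figure D5:**
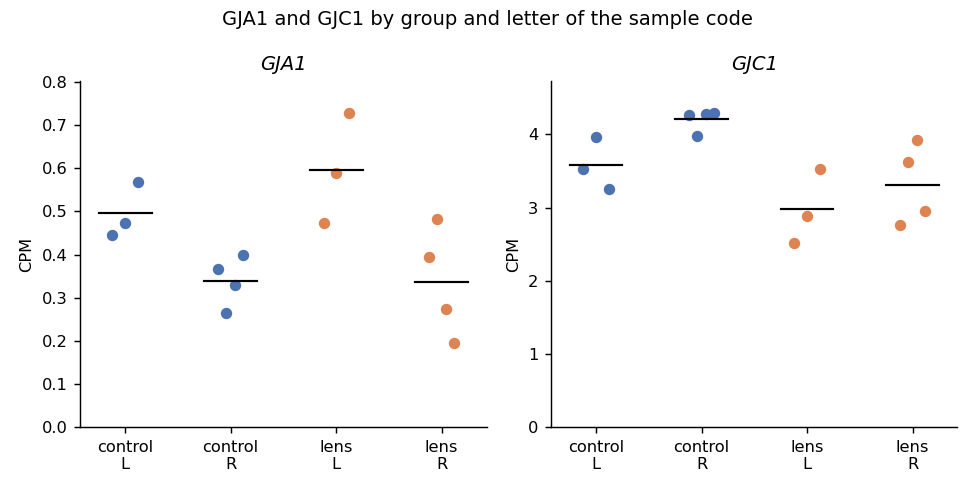
CPM of GJA1 and GJC1 (vertical axes, from 0) by group and by the last letter of the sample code; points are libraries and lines are means. For GJA1 the L libraries average 0.495 CPM in controls and 0.596 CPM in lens retinas, and the R libraries 0.340 and 0.337 CPM.

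There were 6 other connexins listed, and 4 of them were tested. None passed the adjusted limma test, with 1 at an unadjusted p under 0.05, beside 13.5% of all genes. Their median log2 difference was -0.11, beside -0.04 over all genes tested. All 4 were lower with the deposited scaling, where 63.2% of all genes were lower, and 3 of 4 after quantile normalization. GJA9 stood at 2.13 ± 0.191 CPM in controls and 1.59 ± 0.369 CPM in lens retinas (SD, n = 7 each; log2 difference -0.28, SE 0.09, unadjusted p = 0.0069, adjusted p = 0.208), and 6 of 7 lens libraries lay below the control median. It shares 2427 bases with MYCBP on the same strand. GJD4 stood at 3.76 ± 0.523 CPM in controls and 3.64 ± 1.03 CPM in lens retinas (SD, n = 7 each; log2 difference -0.058, SE 0.13, limma adjusted p = 0.873), and its sign turned after quantile normalization (0.015) and without the 5 libraries with W-linked RNA (0.042). Oligodendrocyte markers were lower in 2 of 4 tested, with 0 past the adjusted limma test and 0 at an unadjusted p under 0.05. Values of GJA9 were not all whole numbers of reads, unlike those of the 7 connexins of the list. GJA3 and GJB1 were below the filter.

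Pannexins form channels of a similar fold in a single membrane. Of the 5 listed genes of pannexins and other large-pore channels 3 were tested. By limma 0 passed or had an unadjusted p under 0.05, beside 13.5% of all genes. Their median log2 difference was -0.14, beside -0.04 over all genes tested. PANX2 stood at 18.6 ± 1.70 CPM in controls and 16.7 ± 1.74 CPM in lens retinas, PANX1 at 3.42 ± 0.525 and 2.89 ± 0.432 CPM, and PANX3 at 0.229 ± 0.0803 and 0.314 ± 0.144 CPM (SD, n = 7 each; adjusted p = 0.403, 0.421 and 0.592).

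Scaffold and trafficking proteins hold gap junctions at the membrane. None of the 15 tested passed the adjusted limma test, and 1 had an unadjusted p under 0.05, beside 13.5% of all genes. Of the 15, 8 were lower, or 5 after median ratio scaling, beside 63.2% of all genes with the deposited scaling. TJP1, the scaffold that binds the tail of neuronal and glial connexins, stood at 77.5 ± 6.17 CPM in controls and 73.7 ± 4.06 CPM in lens retinas, and NBEA, a trafficking protein needed at electrical synapses in zebrafish, at 521 ± 30.04 and 530 ± 16.6 CPM (SD, n = 7 each); both were singled out for their role. The smallest p-values were those of CTNNB1, the junctional protein beta-catenin (103.0 ± 5.87 and 111.2 ± 5.42 CPM, log2 difference 0.11, adjusted p = 0.32), CTNND1, another catenin (log2 difference -0.25, adjusted p = 0.376), and SNAP25, a membrane fusion protein (-0.094, adjusted p = 0.417).

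Kinases and phosphatases set how strongly junctions couple. Of 20 tested, 0 passed the adjusted limma test and 3 had an unadjusted p under 0.05, beside 13.5% of all genes. Of the 20, 16 were lower, beside 63.2% of all genes with the deposited scaling, and the median log2 difference was -0.087. After median ratio scaling 12 were lower, with a median of -0.035, beside -0.0019 over all genes tested. PRKG1, the kinase driven by cyclic GMP, stood at 9.62 ± 1.15 CPM in controls and 7.41 ± 0.570 CPM in lens retinas (SD, n = 7 each; log2 difference -0.33, SE 0.08, unadjusted p = 0.000483, adjusted p = 0.112). PRKCB, a protein kinase C, had a log2 difference of -0.18 (adjusted p = 0.229), and PRKAR1B, a regulatory subunit of protein kinase A, one of -0.12 (adjusted p = 0.366).

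Receptors and transmitter genes that act on coupling were lower in 10 of 13 tested genes, where 63.2% of all genes were lower, and the count was 10 under each of the 3 rescalings too. The median log2 difference was -0.11. None passed the adjusted limma test, and 4 had an unadjusted p under 0.05, beside 13.5% of all genes. DRD4, a dopamine receptor of photoreceptors, stood at 29.7 ± 3.03 and 23.0 ± 4.91 CPM (SD, n = 7 each; log2 difference -0.38, adjusted p = 0.185). ADORA2B, an adenosine receptor, stood at 4.73 ± 1.08 and 3.35 ± 0.589 CPM (log2 difference -0.39, adjusted p = 0.19), and GRM5, a glutamate receptor, at 56.9 ± 6.02 and 48.8 ± 4.26 CPM (log2 difference -0.22, adjusted p = 0.204). Of 6 voltage-gated channels tested 0 passed the adjusted limma test, with 2 at an unadjusted p under 0.05, beside 13.5% of all genes. Of the 6, 5 were lower, or 4 after median ratio scaling, beside 63.2% of all genes with the deposited scaling. KCNA2, CACNA1H and KCNA1 had log2 differences of -0.27, -0.29 and -0.13 (limma adjusted p = 0.223, 0.276 and 0.533).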

How the data were processed

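Bulk retina RNA was sequenced after ribosomal RNA depletion with a stranded total RNA kit, per the labels. The submitters' processing notes list Partek, STAR and the GRCg6a build; versions, roles, annotation and use of strand are not given in the sources used here. The deposited values are CPM with 0.0001 added, read from the values themselves: with the offset off, 92.8% to 93.6% of low values per library (up to 200 reads) lay within 0.02 of a whole multiple of 1 step, taken as 1 read. Column sums were 300850 to 330100. One gene without values in every library was left out.

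Lens and control were compared on log2(CPM + 1), which understates changes of low genes, with limma 3.58.1 (lmFit, eBayes with trend) in R 4.3.3, two-sided, Benjamini-Hochberg over the 14218 genes with at least 0.5 CPM on the column sum in 7 libraries, threshold 0.05. No covariate or pairing was used. Limma-voom ran on recovered reads. Exact tests ran over all 3432 assignments, correlations with 100000 permutations within groups. Named are all connexins, the 3 smallest p-values of each list and the 3 genes most like each tested connexin, symbols starting with LOC left out. The connexins and lists were chosen with earlier results of these data known. The limma comparison was also run on simulated reads, in which only genes with more reads were changed. That run does not bear on connexins with few reads or on the choice of scaling. Tables and exact tests used SciPy 1.17.1 and pandas 2.3.3 under Python 3.11.15 (NumPy 2.4.6), and figures matplotlib 3.10.9. W-linked RNA was called where HINTW exceeded 2 on the log2 scale. Red cell markers were represented by SLC4A1 alone, with a summed level of at most 0.0549 CPM. Some results that the naming rule covers are not reported here.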

Additional observations from a re-analysis of the deposited data

Results flagged for a closer look

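GJB1, a connexin of myelinating and liver cells in mammals, stood at 0.1997 CPM in lens replicate 5, apart from the other 6 lens libraries, the next of which was at 0.0846 CPM. Its gap was 0.577 of the range of the group, where the critical value for 7 libraries is 0.568. The value is 8 reads, and the gene was below the filter on low values. Chance flags about 1 in 20 groups, and this was the 1 flag among 56 groups looked at.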

How the results depend on the processing

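In each alternative 0 of the tested connexins passed the adjusted limma test, and GJC1 and GJB6 kept their direction. The log2 difference of GJD2 turned to 0.033 after median ratio scaling, 0.0099 after rescaling to the same sum, 0.0036 after quantile normalization, and 0.016 when the 5 libraries with W-linked RNA were left out, which leaves 9. That of GJA10 turned to 0.032 with a pseudocount of 0.1, 0.0062 after quantile normalization, 0.058 with W-linked RNA as a covariate, 0.076 without those libraries and 0.12 in limma-voom. That of GJA1 turned to -0.030 among the 9 libraries. GJD4 turned to 0.015 after quantile normalization and 0.042 among the 9 libraries. With single libraries left out the ranges were -0.052 to 0.0052 for GJD2, -0.046 to 0.036 for GJA10, -0.0089 to 0.080 for GJA1 and -0.13 to 0.024 for GJD4. The cause of these turns was not tested. The count of 11 genes called was 0 without the filter and after quantile normalization, 1 after median ratio scaling, 17 with the code letter, 19 with W-linked RNA as a covariate, 2 among the 9 libraries and 0 to 18 with single libraries left out. Without a length correction 4 of 7 places in the order of levels were kept; lengths of coding sequence were not used here, and the span was chosen after seeing the data. With the stricter filter GJA10 and GJB6 gave no value. No paired analysis was possible because control and lens samples share no number in their codes. Of the 7 connexins of the list, depth limits all but GJD2 and GJC1. The connexins with 30 reads or fewer per library allow no statement on modest changes.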
